A study of Mus musculus with 24 samples.

Results

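The genes described here make, bind and clear prostaglandins. The members were 9 listed genes: Pla2g4a, Ptgs1, Ptgs2, Ptges, Ptgis, Ptger2, Ptger4, Hpgd and Alox5ap. A member was measured where the array annotation gave its symbol alone to a probe set. That held for 7 of the 9, with 1 probe set each, among 8252 named genes on the array; Ptgs1 and Alox5ap were not analysed here.

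The arrays carried RNA of 11 cell lines derived from lung tumours that 8-month-old mice developed, mice with both a c-Myc and a c-Raf transgene, and of alveolar epithelial type II cells of healthy non-transgenic mice, the control. The lines are A2B1, A2C12, B3, betaD5, betaD10, cRAF_cMYC, gammaA3, gammaA7, gammaB8, gammaD1 and gammaD12. They were kept in medium with calf serum and passaged weekly up to 50 times, while the labels give no culture for the control cells, so genotype, tumour and culture cannot be told apart in a difference between lines and control. The labels do not give the promoter that drives the transgenes. The line titled gammaB8 is named gammaA8 in another label of the same arrays. There were 22 line arrays and 2 control arrays: 5 lines had 3 arrays, 1 line had 2 and 5 lines had 1. In every line 1 array title carries no number, and the other 11 line arrays are numbered; the labels do not say what the number marks, or whether arrays of a line came from separate cultures.

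Prostaglandin synthesis starts when cytosolic phospholipase A2 (Pla2g4a) frees arachidonic acid from membranes. A cyclooxygenase, either Ptgs1, which many cells make steadily, or Ptgs2, which growth factors, serum and cytokines induce, turns it into prostaglandin H2. Terminal synthases then make prostaglandin E2 (Ptges) or prostacyclin (Ptgis). Ptger2 and Ptger4 encode the EP2 and EP4 receptors, which answer prostaglandin E2 by raising cyclic AMP, and Hpgd encodes the dehydrogenase that inactivates it. Alox5ap serves the neighbouring leukotriene branch. Prostaglandin E2 has been studied widely as a growth signal in lung tumours.

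Several features of the arrays touch the results. The median signal of an array was 53.2 to 62.0 on the 11 unnumbered line arrays, 55.0 to 75.5 on the 11 numbered ones and 93.8 to 108 on the 2 controls. The ratio of 3′ to 5′ actin signal, a measure of RNA degradation, was 1.03 to 1.26 on unnumbered, 1.08 to 1.32 on numbered and 1.47 to 1.64 on control arrays. The 2 controls were unlike each other: Sftpc, the surfactant protein C gene that defines type II cells, read 786.5 on control 1 but 11200 on control 2. Markers of other cells were also bright on the controls. The summed signal of 16 myeloid markers was 757.9 to 2147 over the lines, against 53550 and 32570 on the controls. All 14 tested members of that list were lower in the lines, where 21.4% of all tested probe sets were. Testing needed a signal above the array's median on at least 2 arrays. Lyz2 and Ptprc, with highest line means of 15.6 and 6.19, could pass only through the controls. That count was therefore partly built into the filter. Type II markers were low in the lines: 7 such genes summed to 43.8 to 102 over the lines, against 1452 and 29810 on the controls, while 10 fibroblast genes summed to 9160 to 30850 over the lines, against 5413 and 2869 on the controls. The fibroblast list moved both ways: of its 9 tested genes 3 were higher in the lines and 2 lower. Over all tested probe sets 16.5% were higher and 21.4% lower. Collagen genes carried much of the sum, with a mean of 6910 for Col1a1 over the lines, against 1147 and 164 on the controls, while Pdgfra, a fibroblast receptor, had a mean of 146 over the lines, against 696.7 and 352.9. Numbered arrays of 2 lines resembled each other more than their own line. After centring each probe set over the arrays, replicate 1 of cRAF_cMYC and replicate 1 of gammaA7 correlated at 0.786 and their replicates 2 at 0.86, whereas replicates 1 and 2 correlated at 0.165 within cRAF_cMYC and 0.177 within gammaA7. Comparisons over numbered arrays, and those among lines, are given below with and without these 2 lines, a choice made after seeing the data.

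Lines and control were compared on log2(signal + 32), a scale that compresses low signals and so understates the change of dim genes. The mean of each line was a replicate, and 7670 probe sets above their array's median on at least 2 arrays were tested. All 7 measured members were among them, but Hpgd passed through the 2 control arrays alone, and Ptger2 through 1 line array and 1 control array, so the filter kept these 2 for their control signal and their difference was partly built into it. A call needed at least a 2-fold difference and, in limma, a p under 0.05 after Benjamini-Hochberg adjustment. By that rule 2 of the 7 members were higher in the lines, Ptgis and Ptgs2, where 16.5% of all tested probe sets were, and 2 were lower, Hpgd and Ptger2, where 21.4% were. Counts of 2 in 7 lie near these shares, so they say nothing about the members as a list. At any fold, Pla2g4a joined the higher genes, giving 3 of 7 against 30.0% of all probe sets, and the lower genes stayed at 2 of 7 against 34.5%. Every line mean lay above both controls for 3 members, Pla2g4a, Ptgs2 and Ptgis, as for 25.4% of probe sets, and below both for Ptger2 and Hpgd, as for 29.7%. The median difference over all tested probe sets was -0.05 on the log2 scale, and it moved to 0.18 after quantile normalization and 0.49 after centring each array on its median. Without cRAF_cMYC and gammaA7 the members called were again 2 higher and 2 lower.

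**Figure D1:**
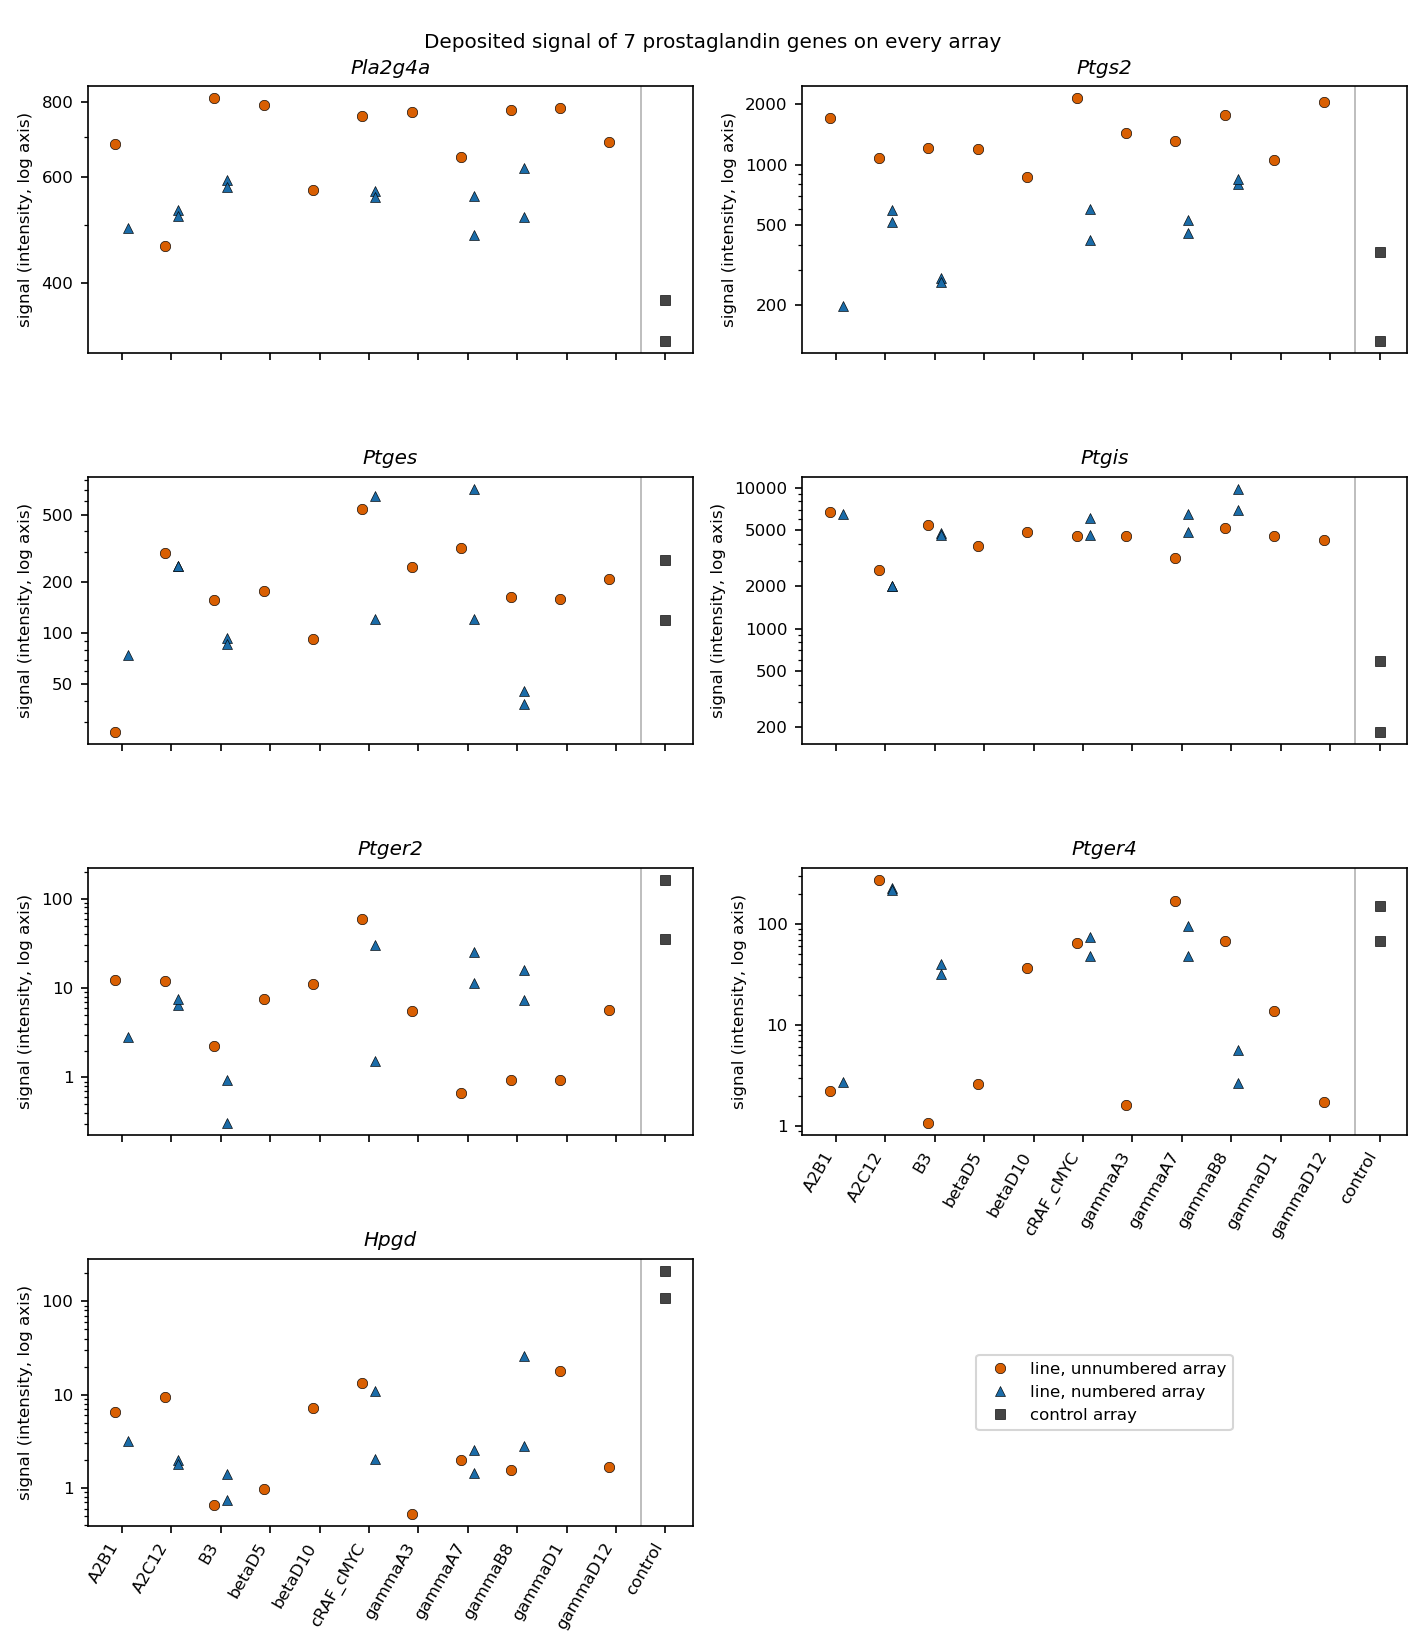
Deposited signal (log axis) of the 7 measured members on each array, with the 11 lines on the left of each panel and the 2 control arrays on the right; circles are unnumbered line arrays, triangles numbered line arrays and squares controls. All 22 line arrays lie above both controls for Pla2g4a and Ptgis, all 22 lie below both for Hpgd, and the circles lie above the triangles of the same line for Ptgs2.

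Pla2g4a and Ptgs2, which supply the substrate and the first committed step, are neighbours in the genome. In RefSeq's GRCm38.p6 annotation Pla2g4a spans chromosome 1 from 149829618 to 149961290 and Ptgs2 spans chromosome 1 from 150100031 to 150108234. The gap between them is 139 kb and holds 2 annotated genes, Gm19136 and Ptgs2os, and 0 protein-coding ones. They are transcribed away from each other, and both had every line mean above both controls, so the 250 bases before each annotated start are shown, read along the gene, with motif matches in capitals. The Ptgs2 stretch is chr1:150099781-150100030 on the plus strand, and the Pla2g4a stretch is chr1:149961291-149961540 on the minus strand.
Ptgs2: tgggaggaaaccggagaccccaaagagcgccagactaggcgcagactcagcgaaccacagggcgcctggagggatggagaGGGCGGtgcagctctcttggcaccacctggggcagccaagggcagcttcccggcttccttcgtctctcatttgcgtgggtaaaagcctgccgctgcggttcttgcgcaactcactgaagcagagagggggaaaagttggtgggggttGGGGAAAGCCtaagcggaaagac
Pla2g4a: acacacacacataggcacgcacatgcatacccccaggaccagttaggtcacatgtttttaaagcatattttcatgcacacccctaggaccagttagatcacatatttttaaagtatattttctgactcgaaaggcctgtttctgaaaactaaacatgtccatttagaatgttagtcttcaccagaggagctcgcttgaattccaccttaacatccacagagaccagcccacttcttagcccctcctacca
The motifs searched, on both strands, were TATAAA, the E-box CACGTG, the cAMP response element TGACGTCA and its core CGTCA, the GC box GGGCGG, and a loose form of the NF-kB motif (GGG, any 5 bases, CC). The Ptgs2 stretch held GGGCGG from 170 to 165 bases before the start and the NF-kB form from 23 to 14 bases before it. The Pla2g4a stretch held none of the 6, and had 43.2% G and C against 61.6% in that of Ptgs2. An alternative Pla2g4a start further into the gene has TATAAA on the opposite strand, 200 to 195 bases before it. Of 32817 stretches of this length before annotated mouse starts, 32.7% held GGGCGG, 45.8% the NF-kB form, 17.7% CGTCA, 12.4% TATAAA, 6.02% CACGTG and 1.55% TGACGTCA.

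Pla2g4a was higher in every line, by a small margin. Its line means had a lowest signal of 502 (A2C12), a median of 637 and a highest of 792 (betaD5), against 375.7 and 321.1 on the controls. All 22 line arrays lay above both controls, so the groups did not overlap. The difference was 0.83 on the log2 scale (SE 0.17, limma adjusted p = 0.000554), which is under 2-fold. Centring each array on its median raised it to 1.37 and past the fold threshold.

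Ptgs2 was higher in the lines on average, and its level depended on which arrays of a line were read. The line means had a lowest signal of 582 (B3), a median of 1052 and a highest of 2049.8 (gammaD12), against 366.5 and 132.6 on the controls, a mean of 1075 ± 402 (SD, n = 11 lines). Every line mean lay above both controls, but 3 numbered arrays did not: 1 of A2B1 and 2 of B3 lay between the control values. The difference was 1.88 on the log2 scale (SE 0.42, limma adjusted p = 0.00113). It was 2.47 over the unnumbered arrays of 11 lines (adjusted p = 9.97e-06) and 0.85 over the numbered arrays of 6 lines (adjusted p = 0.180), where the call was lost. Without cRAF_cMYC and gammaA7 the numbered arrays gave 0.75 (adjusted p = 0.346). These fits rest on different sets of lines, against the same 2 controls, neither titled with a replicate number. Over all line arrays the difference was 1.25 without control 2 (adjusted p = 0.0689) and 2.52 without control 1 (adjusted p = 0.00116). On unnumbered arrays alone, 2 members were called higher, as were 16.8% of probe sets, and 2 lower, as were 22.4%. On numbered arrays alone, Ptgis was the 1 member called higher, against 15.1% of probe sets, and Hpgd and Ptger2 were called lower, against 18.7%; the same members were called without cRAF_cMYC and gammaA7.

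Within lines, Ptgs2 was the member that separated unnumbered from numbered arrays. In A2B1 its signal was 1707 on the unnumbered array and 196.8 on the numbered one. In A2C12 it was 1075 on the unnumbered array, against 592 and 518 on the numbered ones, and in B3 it was 1213 against 273 and 259. These 3 lines span the extremes: the gap was widest in A2B1 and narrowest in A2C12. In cRAF_cMYC the signal was 2149 on the unnumbered array, against 423 and 602 on the numbered ones. In gammaA7 it was 1311 against 454 and 532, and in gammaB8 1778 against 798 and 850.4. The unnumbered array was thus above every numbered array of its own line in 6 of 6 lines, and the lowest unnumbered line value of these 6, 1075, lay above the highest numbered one.

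The mean within-line difference of Ptgs2 was 1.73 on the log2 scale (SE 0.24, n = 6 lines, limma adjusted p = 0.0254), rank 4 among the rises of 7670 probe sets. It was 1 of 7 members called higher on unnumbered arrays, where 0.404% of probe sets were, and 0 of 7 were called lower, where 0.430% were. At an unadjusted p under 0.05, 2 of 7 members were higher on unnumbered arrays, as were 7.03% of probe sets: Ptgs2, and Pla2g4a with 0.31 (adjusted p = 0.183). Ptgs2 was also the 1 member of 7 that was higher on the unnumbered array in all 6 lines, as were 4.38% of probe sets, and 0 of 7 were lower in all 6, as were 9.88%. The adjusted p stood at 0.0551 to 0.0911 when any line but A2B1 was left out, with the difference between 1.66 and 1.89, and at 0.0206 without A2B1, with a difference of 1.49. Without both cRAF_cMYC and gammaA7 the difference was 1.75 and the adjusted p 0.332 with 4 lines. The 5 lines that have an unnumbered array alone, betaD5, betaD10, gammaA3, gammaD1 and gammaD12, had Ptgs2 signals of 868 to 2049.8, so lines with 1 array and lines with several cannot be set side by side for this gene. The part of culture, extraction or array handling in this split was not tested.

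**Figure D2:**
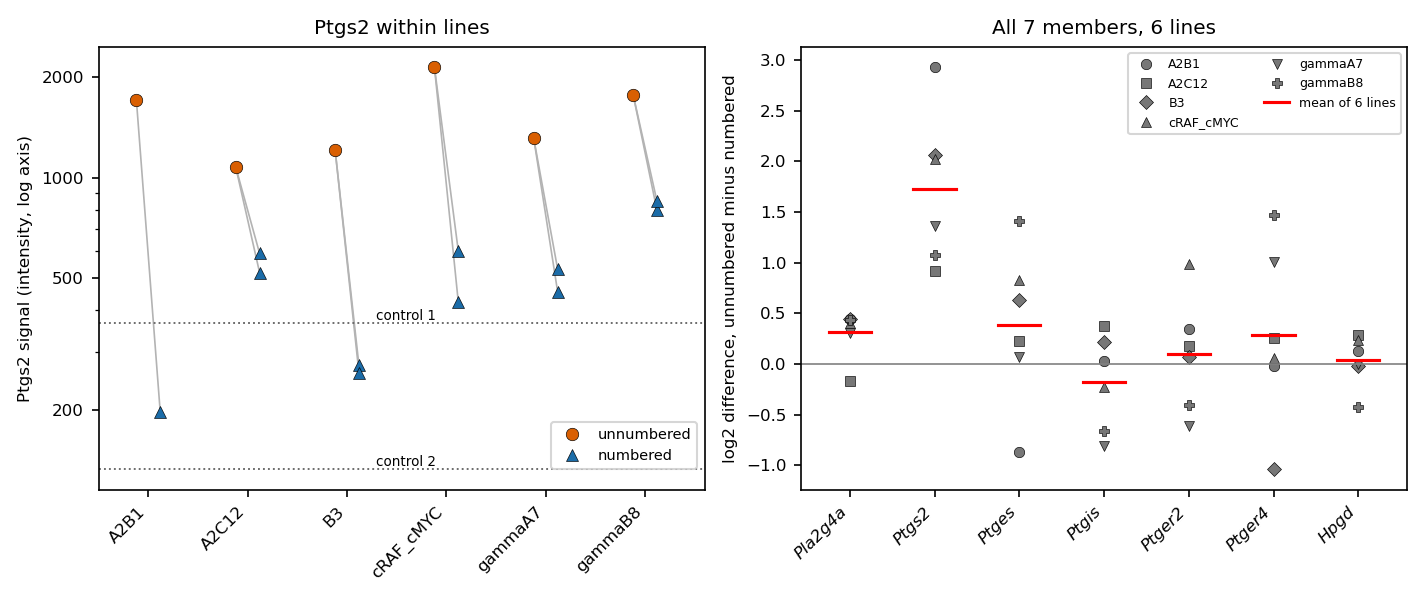
Left, Ptgs2 signal (log axis) on the unnumbered array (circle) and the numbered arrays (triangles) of the 6 lines that have both, with the 2 controls as dotted lines; right, log2 difference between unnumbered and numbered arrays of the 7 members, with 1 symbol per line and the mean over 6 lines as a bar. The Ptgs2 differences run from 0.92 in A2C12 to 2.93 in A2B1. The means of the other members run from -0.18 (Ptgis) to 0.38 (Ptges). Their single lines scatter more widely, as with Ptger4 at 1.47 in gammaB8 and -1.04 in B3, and Ptges at 1.41 in gammaB8.

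Of the terminal synthases, Ptgis was higher in the lines and Ptges did not separate lines from control. Ptgis, chromosome 2 from 167203194 to 167252150, makes prostacyclin. Its line means had a lowest signal of 2211 (A2C12), a median of 4822 and a highest of 7287 (gammaB8), against 586 and 185.5 on the controls, a mean of 4821 ± 1325 (SD, n = 11 lines). All 22 line arrays were above both controls, and the dimmest of them, 2001, was more than 3 times the brighter control. The difference was 3.66 on the log2 scale (SE 0.36, limma adjusted p = 4.56e-07), rank 17 among the rises of 7670. It was 3.59 over the unnumbered arrays of 11 lines and 3.77 over the numbered arrays of 6 lines, 2.91 without control 2 and 4.41 without control 1. The summed signal of the fibroblast list was also higher over the lines, though its genes moved both ways, as given above. Endothelial markers summed to 1042 to 4073 over the lines, against 1569 and 3287 on the controls. That list moved both ways too: of its 6 tested genes 2 were higher in the lines and 4 lower. Over all tested probe sets 16.5% were higher and 21.4% lower. Eng carried much of the sum, with a mean of 2700 over the lines, against 519 and 875.9 on the controls. Vwf had a mean of 3.16 over the lines, against 277.1 and 659.8, and could pass the filter only through the controls. Mesothelial markers summed to 142.7 to 6672, against 866.1 and 1296. The part of any of these cells in the Ptgis difference was not tested.

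Ptges, chromosome 2 from 30889471 to 30931020, encodes the inducible microsomal prostaglandin E synthase. Its line means had a lowest signal of 50.3 (A2B1), a median of 177.8 and a highest of 437 (cRAF_cMYC), against 269 and 120.1 on the controls. The groups overlapped: 2 lines lay above both controls, 4 below both and 5 between them. The difference was -0.14 on the log2 scale (SE 0.50, limma adjusted p = 0.821), and it changed sign with the scaling, to 0.21 after quantile normalization and 0.40 after centring. The spread within lines was wide. In cRAF_cMYC the unnumbered array read 542.5 and the numbered ones 121 and 647.8, and in gammaA7 the unnumbered array read 319.8 and the numbered ones 120.8 and 707.5. Here the same-numbered arrays of different lines were closer to each other than to their own line, which is the resemblance described above.

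Of the prostaglandin E2 receptors, Ptger2 was lower in the lines and Ptger4 did not pass the test. Ptger2, chromosome 14 from 44988111 to 45003820, had line means with a lowest signal of 0.930 (gammaD1), a median of 7.50 and a highest of 30.2 (cRAF_cMYC), against 161.3 and 35.1 on the controls. Of the 22 line arrays, 21 lay below both controls and 21 below their array's median; the unnumbered cRAF_cMYC array, at 58.7, was the exception to both. The difference was -1.51 on the log2 scale (SE 0.27, limma adjusted p = 0.000179). Ptger2 passed the filter through 1 line array and 1 control array, so this difference was partly built into the filter. The size rested on control 1: without it the difference was -0.75 (adjusted p = 0.0142), under 2-fold. Centring gave -0.98 and an offset of 100 gave -0.79, both under 2-fold.

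Ptger4, chromosome 15 from 5233399 to 5244187, had line means with a lowest signal of 1.60 (gammaA3), a median of 24.4 and a highest of 239 (A2C12), against 152.2 and 67.1 on the controls. A2C12 was above both controls, 9 lines were below both and gammaA7 was between them. The difference was -1.17 on the log2 scale (SE 0.62, limma adjusted p = 0.109), which did not pass the test. Without A2C12 it was -1.38 (adjusted p = 0.0127) and passed.

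Hpgd, chromosome 8 from 56294552 to 56321046, ends prostaglandin signalling by oxidising the molecule. Its line means had a lowest signal of 0.531 (gammaA3), a median of 4.45 and a highest of 18.1 (gammaD1), against 108.7 and 211.1 on the controls. All 22 line arrays lay below both controls and below their array's median, so in the lines the gene was not read above the bulk of dim probe sets. The difference was -2.32 on the log2 scale (SE 0.19, limma adjusted p = 9.44e-08). Hpgd passed the filter through the 2 control arrays alone, so this difference was partly built into the filter. Club cell markers summed to 55.7 to 127 over the lines, against 7036 and 21580 on the controls, and myeloid and type II markers were bright on the controls as well; their part in the Hpgd, Ptger2 and Ptger4 differences was not tested. In bulk RNA, fewer cells that make a transcript and less of it per cell cannot be told apart.

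A second question was whether the lines differed among themselves, with the spread between arrays of a group as the error. The 2 controls were a group of the same fit. The spread between them is therefore part of that error and of each SD within groups given below. Ptger4 was the 1 member of 7 to pass a moderated F-test over the 11 lines (limma adjusted p = 0.00848, rank 73 of 7670), where 3.42% of probe sets passed. In A2C12 it read 272 on the unnumbered array and 226 and 219 on the numbered ones. In gammaA7 it read 171 on the unnumbered array, against 96.0 and 47.8, and in cRAF_cMYC 64.5 against 75 and 48.6. A2C12 therefore stood above every other line with no overlap between arrays, and gammaA7 and cRAF_cMYC overlapped each other. In A2B1, betaD5, gammaA3 and gammaD12 no array was above 2.73. B3 read 1.08 on the unnumbered array, against 32 and 40.1, and gammaB8 read 68.1 against 5.61 and 2.67, so these 2 lines disagreed with themselves in opposite directions. betaD10 (36.6) and gammaD1 (13.8) had 1 array each.

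On the log2 scale the Ptger4 gap between A2C12 and gammaA7 was 1.08, wider than the SD within groups of 0.55, and every other gap between neighbours in the order was 0.46 or less. The F-test rested on A2C12: without that line the adjusted p was 0.499. Without cRAF_cMYC and gammaA7 it was 0.0153, and without their 4 numbered arrays alone it was 0.0172. It was 0.00211 over the numbered arrays of 5 lines, and 3.6e-05 over those of A2C12, B3 and gammaB8. Because the gene differs between lines, the 250 bases before its annotated start are shown, chr15:5244188-5244437 on the minus strand, read along the gene, with motif matches in capitals.
Ptger4: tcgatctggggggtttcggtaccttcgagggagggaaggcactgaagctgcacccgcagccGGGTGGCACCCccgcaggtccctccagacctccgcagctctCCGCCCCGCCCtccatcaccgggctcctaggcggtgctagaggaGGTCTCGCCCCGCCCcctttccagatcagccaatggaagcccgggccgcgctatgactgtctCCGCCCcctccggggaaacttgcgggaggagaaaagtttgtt
This stretch, 66.8% G and C, held 4 matches to GGGCGG, all on the opposite strand, and 3 to the NF-kB form, some of which overlap, and none to the other 4 motifs.

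The other members were less distinct between lines. Ptgis ranged over 1.67 on the log2 scale, and its F-test gave an adjusted p of 0.149 over 11 lines. That p was 0.0455 with no control arrays in the fit, where 331 of 7670 probe sets passed, and 0.135 without cRAF_cMYC and gammaA7. Among the 6 lines with 2 or 3 arrays Ptgis passed (adjusted p = 0.00704), as did 12.8% of probe sets. Ptger4 and Ptges (adjusted p = 0.0497) passed there too. Among those lines without cRAF_cMYC and gammaA7, the adjusted p was 0.00215 for Ptgis, 0.00247 for Ptger4 and 0.0234 for Ptges, where 1213 of 7670 probe sets passed. A2C12 was lowest, with 2615 on the unnumbered array and 2018 and 2001 on the numbered ones, all below every array of any other line. The gap to the next line, betaD5, was 0.81, against an SD within groups of 0.44, and no other gap exceeded 0.40. A2C12 was thus the line with the highest Ptger4 and the lowest Ptgis. With A2C12 left out, the F-test of Ptgis over the other lines gave an adjusted p of 0.877. Every fit in which Ptgis passed included A2C12.

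Ptgs2 had an adjusted p of 0.835 over 11 lines, with an SD within groups of 1.06 that exceeded every gap between neighbours. Over the numbered arrays of 5 lines, where 20.7% of probe sets passed, 3 of 7 members did: Ptger4, Ptgs2 (adjusted p = 0.00977) and Ptgis (adjusted p = 0.00654). Over the numbered arrays of A2C12, B3 and gammaB8, where 3578 of 7670 probe sets passed, these 3 members and Ptges did, with adjusted p = 0.000341 for Ptgs2, 0.000525 for Ptgis and 0.000115 for Ptges. On the numbered arrays of the 5 lines Ptgs2 was lowest in B3 and highest in gammaB8, as the values above show. Ptges (adjusted p = 0.202), Pla2g4a (0.595), Hpgd (0.830) and Ptger2 (0.877) did not pass over 11 lines. Without cRAF_cMYC and gammaA7 the F-test gave adjusted p = 0.135 for Ptges, 0.599 for Pla2g4a, 0.877 for Hpgd, 0.998 for Ptger2 and 0.718 for Ptgs2. Leaving out only the numbered arrays of these lines gave 0.0808 for Ptges. For Ptges, Pla2g4a and Ptger2 no gap between neighbouring lines exceeded the SD within groups, which includes the spread between the 2 controls. For Ptger2 the widest gap, 0.409 below cRAF_cMYC, was close to that SD of 0.481. For Hpgd only gammaD1, with 1 array, was set off, by 0.30 against an SD of 0.27, at a signal below its array's median.

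**Figure D3:**
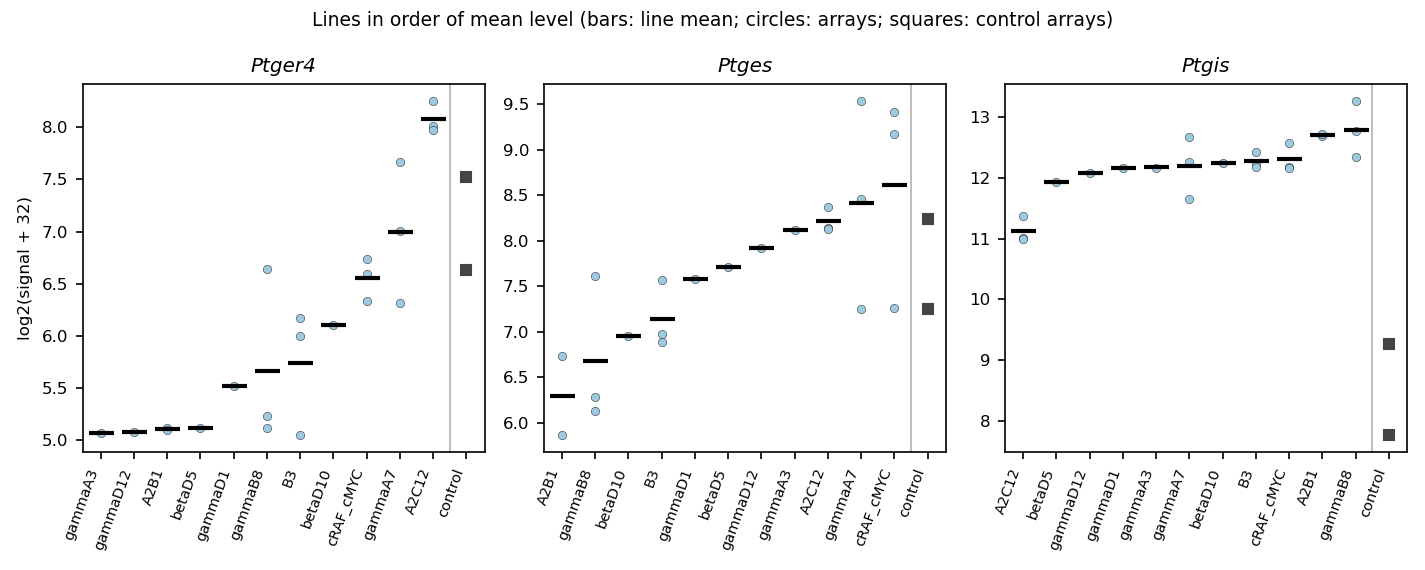
Level of Ptger4, Ptges and Ptgis as log2(signal + 32) in the 11 lines, each panel in its own order from low to high, with line means as bars, single arrays as circles and the 2 control arrays as squares at the right. A2C12 is set apart at the top for Ptger4 and at the bottom for Ptgis, and the Ptges circles of gammaA7 and cRAF_cMYC span much of the range of all lines.

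Genes whose line means ran most like those of the 3 members with the widest range were found by Pearson correlation over the 11 lines among 5825 genes, as a description. With Ptger4 they were Clca3a1 (r = 0.972), Adam19 (0.945) and Il4ra (0.926). All 3 were highest in A2C12, where their mean signals were 866, 549.5 and 527. With Ptges they were Rbbp6 (0.920), Saal1 (0.919) and Nfic (0.906), all lowest in A2B1. With Ptgs2 they were Specc1 (0.913), Zmat3 (0.90) and Mdm2 (0.890), all highest in gammaD12, which had 1 array. The genes listed with Ptger4 passed the F-test over the 11 lines (adjusted p = 0.00583 to 0.0459). They were picked for likeness to Ptger4, whose own F-test rested on A2C12, so their passing is no separate support. Without A2C12, 16 of 7670 probe sets passed the F-test. Whether these correlations rest on that line was not tested. None of those listed with Ptges or Ptgs2 did (adjusted p = 0.308 to 0.707). The line means of a member and of these genes come from the same arrays, so they share any difference between arrays, and for Ptgs2 they also carry the split between unnumbered and numbered arrays.

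The other genes of the pathway were followed in 7 lists with 95 genes, of which 70 were on the array and 50 were tested. Over these 50 genes 1 was higher in the lines and 26 were lower, with a median difference of -1.17, against 16.5% and 21.4% of all tested probe sets and a median of -0.05. Of the 26, 5 had no line array above its median and passed the filter through the controls alone, so the filter kept them for their control signal: Cbr2, Aloxe3, Ltc4s, Dpep1 and Il1a. Among all probe sets called lower that held for 321 of 1638. Mgst2, Adcy4 and Prkar1b, also called lower, had 1 line array each above its median. They too needed a control array to pass the filter, so their difference was partly built into it. Among phospholipases A2, 1 of 7 tested genes was higher and 2 were lower. Pla2g6, the calcium-independent enzyme, had line means of 207.9 to 296.8, against 63.0 and 58.5 on the controls (1.60 on the log2 scale, limma adjusted p = 2.88e-07). Pla2g7, the platelet-activating factor acetylhydrolase, differed by -3.59, with 1840 on control 1 and 146.3 on control 2, and Pla2g1b, the pancreatic type, by -2.71.

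Of 5 tested synthases other than the members, 0 were higher and 4 lower (median -1.62). Tbxas1, thromboxane A synthase, had line means of 69.4 to 134.1, against 657.6 and 364 on the controls, a difference of -2.11. Cbr2, a carbonyl reductase abundant in lung, differed by -1.73, and Ptgds, the lipocalin-type prostaglandin D synthase, by -1.62. Ptges2, another prostaglandin E synthase, had line means of 201.4 to 296.3, against 138.7 and 146.8 on the controls, a difference of 0.69 that was under 2-fold.

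Of the 7 prostanoid receptor genes other than the members, all on the array, only Ptgdr2, a prostaglandin D2 receptor, was bright enough to test, and it was not called (-0.55). Ptgir, the prostacyclin receptor, had line means of 2.69 to 20.3, against 77.0 and 35.0 on the controls, and was not tested. Among transport and breakdown genes, Ptgr1, a prostaglandin reductase, was the 1 of 2 tested that was lower (-1.48). Cbr3, the other, was not called against control. Between unnumbered and numbered arrays, 1 of the 50 tested genes was called higher, Cbr3 (0.81, limma adjusted p = 0.0352), against 0.404% of all probe sets, and 1 lower, Tgfb1 (-0.78, adjusted p = 0.0352), against 0.430%. Neither call held with an offset of 1, where the adjusted p was 0.082 for both, nor without any one line other than A2B1, where it was 0.0963 to 0.122 for Cbr3 and 0.0848 to 0.126 for Tgfb1.

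In the leukotriene list 0 of 7 tested genes were higher and 6 were lower (median -1.88). Of these 6, Aloxe3, Ltc4s and Dpep1 passed the filter through the controls alone, and Mgst2 needed a control array to pass. Ltc4s, leukotriene C4 synthase, had line means of 27.5 to 50.7, against 1635 and 737.7 on the controls, a difference of -4.00 (limma adjusted p = 3.93e-10). Mgst2 (-2.51) and Mgst3 (-2.24), microsomal glutathione transferases that can also make leukotriene C4, were lower too. Lta4h, which makes leukotriene B4, was the exception, with line means of 831.5 to 1476, against 1047 and 1025 on the controls, and a difference of 0.03.

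Downstream of the receptors, 0 of 15 tested genes of Gs and cyclic AMP signalling were higher and 5 were lower (median -0.52). The adenylyl cyclases Adcy3 (-2.20) and Adcy7 (-2.05) and the arrestin Arrb1 (-1.89) led the lower ones. Of these 5, Adcy4 and Prkar1b needed a control array to pass the filter. Of 13 tested regulators of Ptgs2 transcription and mRNA decay, 0 were higher and 8 lower (median -1.24). Cebpa, a transcription factor of type II and myeloid cells, differed by -4.85, the mRNA decay factor Zfp36 by -3.82 and the cytokine Il1a, which also passed the filter through the controls alone, by -3.57. Myeloid markers were high on the controls, as given above, and many of these genes are expressed in myeloid cells; their part in the lower counts was not tested.

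**Figure D4:**
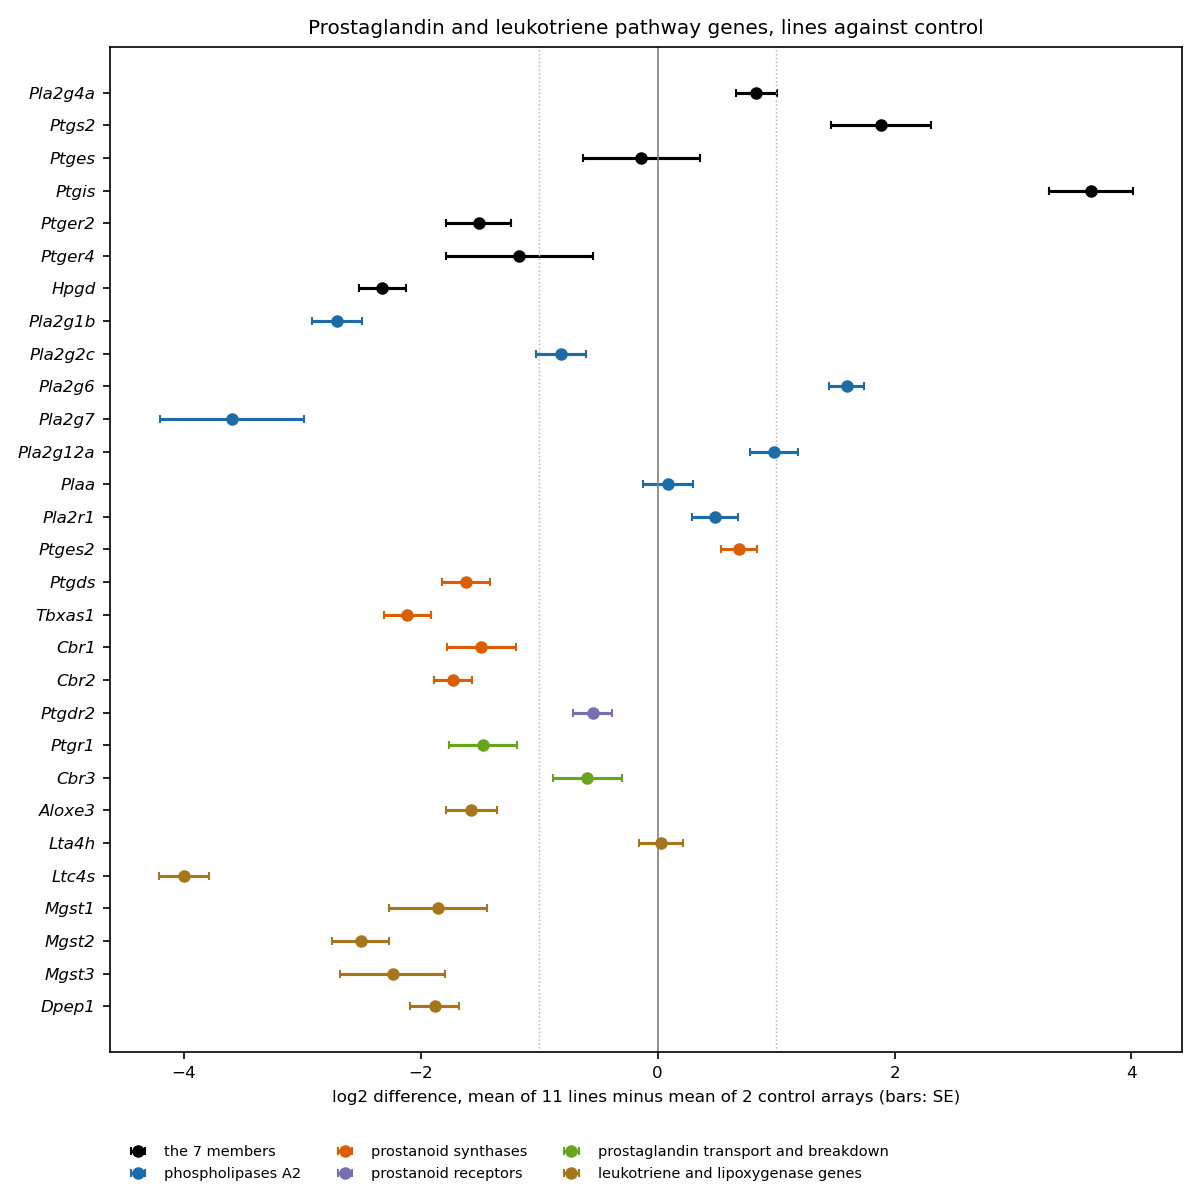
Log2 difference between the mean of 11 lines and the mean of 2 control arrays (bars are SE) for the 7 members and the tested genes of 5 pathway lists, coloured by list; dotted lines mark 2-fold. Ptgis (3.66), Ptgs2 (1.88) and Pla2g6 (1.60) stand to the right of the upper dotted line, and most leukotriene genes and synthases stand to the left of the lower one.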

How the data were processed

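Each array gave 1 intensity signal per probe set on a linear scale, deposited by the authors and made with GCOS, Affymetrix's scanner software, per the submitters' processing notes; not given in the sources used here are its version, background correction and detection calls. The mean intensity without 2% of probe sets at each end was 250.1 to 250.2 on every array, so the deposited values are scaled array by array, and a difference is read against the rest of the same sample's RNA. The number of arrays limits the precision, and the spread behind the p-values is that between these samples and may be technical. The 66 control probe sets were left out of 12488, and 7670 of the other 12422 were tested. Symbols came from the platform annotation, which gave 10855 probe sets 1 current symbol.

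Fits used limma 3.58.1 in R 4.3.3 on log2(signal + 32): 11 line means against 2 control arrays; a moderated F-test over the lines from 12 group means of 24 arrays, where lines with 1 array are assumed to vary like the others; and the within-line difference between unnumbered and numbered arrays in 6 lines. Adjusted p-values are Benjamini-Hochberg over all 7670. The fits were tested on simulated data. No pair of arrays held identical values. The number in a title was not used to pair arrays in the main fits. After subtracting each line's own mean, the correlations of same-numbered arrays of different lines began at 0.0588, under the 0.1 asked of every pair. The replicate block, an alternative, did use the number across lines, although the arrays had not met that condition.

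The members, lists and alternatives were chosen with earlier results of these data known. All members are named, with up to 3 called genes of largest difference per list (the largest where none was called). The 3 genes most alike to each of 3 members are named too. Ptges2, Ptgir, Lta4h, Cbr2, Cbr3, Aloxe3, Dpep1, Tgfb1, Col1a1 and Pdgfra were named after their values were seen. So were Eng, Vwf, Lyz2, Ptprc, Adcy4 and Prkar1b. The motif search, planned for Ptgs1 and Ptgs2, was extended to the other members later. Sequences and gene positions are RefSeq's, build GRCm38.p6. Alternatives were other scalings, offsets, filters, fold thresholds and variance models, either kind of array alone, a replicate block, and leaving out lines, controls or arrays.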

Additional observations from a re-analysis of the deposited data

Results flagged for a closer look

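Ptgs2 differed between kinds of array: its log2 difference between unnumbered and numbered arrays was 1.73 (n = 6 lines, higher in 6 of 6, limma adjusted p = 0.0254). Ptger4 differed between lines, with an adjusted p of 0.00848 in limma's moderated F-test. For Pla2g4a, the within-line difference of A2C12, -0.171, stood apart from the other 5 lines, whose differences were 0.309 to 0.449. Chance sets a sample apart in this way in about 1 of 20 groups, and this case was picked out among 7 members.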

How the results depend on the processing

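The direction of Ptgis, Ptgs2 and Pla2g4a (higher in the lines) and of Hpgd and Ptger2 (lower) was the same under every alternative that tested them. The main filter kept Hpgd and Ptger2 for their control signal, so their direction was partly built into the fits that used it. Members called higher fell to 1 with a 4-fold threshold and on numbered arrays alone, with or without cRAF_cMYC and gammaA7. Members called lower fell to 1 after centring, with an offset of 100 and at 4-fold, and to 0 with the stricter filter (above the median on at least 12 arrays), under which Hpgd, Ptger2 and Ptger4 were not tested. Leaving out lines, controls or arrays gave 1 to 2 members higher and 1 to 3 lower. Among lines the count was 0 with the stricter filter, 3 over the 6 lines with 2 or 3 arrays, where 979 probe sets passed, 3 over the numbered arrays of 5 lines, 3 and 4 over these without cRAF_cMYC and gammaA7, 2 with no control arrays in the fit, where Ptgis passed (adjusted p = 0.0455), and 0 to 1 in the fits that left out a line or array. Between unnumbered and numbered arrays the count was 0 with an offset of 1 (Ptgs2 adjusted p = 0.0802), a floor of 32 (0.0595), no filter (0.0582) or without cRAF_cMYC and gammaA7, an alternative chosen after seeing the data, and 0 to 1 in the fits that left out a line or array. The Ptges difference from control was 0.21 after quantile normalization, 0.40 after centring, 0.016 on unnumbered arrays alone, 0.016 with a replicate block, and -0.63 to 0.36 with a line, control or array left out. With the replicate block, which takes the title number as shared across lines, Ptger4 was called lower (-1.06, limma adjusted p = 0.0209). The unnumbered minus numbered difference of Hpgd was 0 with the floor of 32, -0.0042 without cRAF_cMYC and gammaA7, and -0.024 to 0.130 in the fits that left out a line or array; that of Ptger2 was -0.083 to 0.236 in those fits. Over all probe sets, calls were 2421 higher and 923 lower after centring, 279 and 568 at 4-fold, and 870 lower with the stricter filter. Calls among lines ran from 16 without A2C12 to 1584 over the numbered arrays of 5 lines and 3578 over those of A2C12, B3 and gammaB8, and calls between unnumbered and numbered arrays from 0 to 131. The causes of these changes were not tested.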
